A study of Mus musculus with 2 samples.

Results

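At embryonic day 14 (E14) the mouse utricular epithelium held 329 cells that were selected on Wnt3, Wnt6 and Sfrp5. A cell was counted when these 3 genes together gave at least 3 UMIs (unique molecular identifiers, tags that count captured transcripts), when Epcam, an epithelial adhesion gene, gave at least 1, and when Slc26a4, Kcne1 plus Esrrb, and Sox2 gave at most 1 each. The last 3 limits removed cells with transcripts of other vestibular epithelia and of the sensory patch. Of 482 cells that met the limit on the 3 genes, 414 held Epcam, 405 of these met the limit on Slc26a4, 377 that on Kcne1 plus Esrrb and 329 that on Sox2. They were 2.84% (2.54 to 3.16%) of the 11588 E14 cells past the filter and 11.0% (9.89 to 12.2%) of the Epcam cells with low Sox2. The other 2666 of those Epcam cells are called the comparison cells. Since measured UMIs chose the Wnt3 Wnt6 Sfrp5 cells, every difference between them and the comparison cells is a description and was not tested.

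The study profiled utricular sensory epithelium of wild-type mice in 1 droplet library at E14 and 1 at postnatal day 2 (P2), each from pooled tissue that had been detached with thermolysin and dissociated. No group carried a transgene or received a treatment. The E14 library held 122892080 UMIs in 15636 barcodes and the P2 library 57003553 in 6251 barcodes. The libraries shared 23 barcodes, and 0 of the 329 cells carried any of these. With 1 library per age there was no replicate, so age, litter and preparation cannot be told apart and no p-value was computed. Levels are given as UMIs per 1000000 UMIs summed over a group of cells (CPM), and the 95% intervals beside them cover counting error only.

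Wnt proteins are secreted ligands that bind Frizzled receptors and their co-receptors on neighbouring cells and can stabilise beta-catenin, which then acts with TCF and LEF factors on target genes. Secreted Frizzled-related proteins such as Sfrp5 bind Wnt ligands outside the cell and can keep them from the receptors. In the developing inner ear, Wnt signals act on the dorsal otic epithelium, from which the vestibular organs and the nonsensory walls around them form. Nonsensory otic epithelium surrounds the macula and includes the endolymph-secreting dark cells, the transitional cells and the roof of the chamber.

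The upstream sequences of the 3 selecting genes are shown because Wnt3 and Sfrp5 were found in largely the same cells and Wnt6 in nearly all of them, and those of Aass and Aldh1a1 because their levels lay on opposite sides of the split by Sfrp5 described further on. They are the 250 bases before the annotated start in the RefSeq table of GRCm38.p6. Wnt3 lies on the plus strand of chromosome 11 (chr11:103773925-103774174), next to Wnt9b. Wnt6 lies on the plus strand of chromosome 1 (chr1:74771642-74771891), next to Wnt10a. Sfrp5 lies on the minus strand of chromosome 19 (chr19:42202253-42202502). Aass lies on the minus strand of chromosome 6 (chr6:23132987-23133236), and Aldh1a1 has 2 starts in the table, both on the plus strand of chromosome 19 and both shown (chr19:20492333-20492582 and chr19:20601718-20601967). Capitals mark matches, on either strand, to the TCF/LEF-type letters CTTTGAA and CTTTGAT or the GATA-type letters AGATAA and TGATAA.
Wnt3: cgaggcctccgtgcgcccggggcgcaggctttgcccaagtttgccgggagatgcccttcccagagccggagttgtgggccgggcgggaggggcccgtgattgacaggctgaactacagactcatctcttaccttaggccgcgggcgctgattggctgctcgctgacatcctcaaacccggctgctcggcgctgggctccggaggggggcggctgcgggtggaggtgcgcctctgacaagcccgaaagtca
Wnt6: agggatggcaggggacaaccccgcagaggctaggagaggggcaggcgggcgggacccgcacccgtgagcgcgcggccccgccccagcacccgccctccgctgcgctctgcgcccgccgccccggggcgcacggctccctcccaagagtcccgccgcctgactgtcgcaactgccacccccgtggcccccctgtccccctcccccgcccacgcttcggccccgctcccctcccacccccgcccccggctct
Sfrp5: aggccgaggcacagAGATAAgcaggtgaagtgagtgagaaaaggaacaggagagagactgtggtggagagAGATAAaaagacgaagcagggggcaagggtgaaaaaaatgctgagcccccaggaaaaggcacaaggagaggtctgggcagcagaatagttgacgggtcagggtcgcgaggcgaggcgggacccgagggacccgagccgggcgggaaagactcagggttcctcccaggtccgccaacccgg
Aass: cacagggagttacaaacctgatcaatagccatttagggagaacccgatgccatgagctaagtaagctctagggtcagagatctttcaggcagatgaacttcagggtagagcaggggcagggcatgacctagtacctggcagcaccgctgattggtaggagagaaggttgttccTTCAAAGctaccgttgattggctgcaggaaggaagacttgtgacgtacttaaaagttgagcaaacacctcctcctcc
Aldh1a1, upstream start: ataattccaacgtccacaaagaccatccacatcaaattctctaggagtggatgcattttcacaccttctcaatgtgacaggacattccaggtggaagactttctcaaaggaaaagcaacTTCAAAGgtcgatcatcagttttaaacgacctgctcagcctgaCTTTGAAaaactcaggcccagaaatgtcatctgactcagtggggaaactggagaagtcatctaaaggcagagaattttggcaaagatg
Aldh1a1, downstream start: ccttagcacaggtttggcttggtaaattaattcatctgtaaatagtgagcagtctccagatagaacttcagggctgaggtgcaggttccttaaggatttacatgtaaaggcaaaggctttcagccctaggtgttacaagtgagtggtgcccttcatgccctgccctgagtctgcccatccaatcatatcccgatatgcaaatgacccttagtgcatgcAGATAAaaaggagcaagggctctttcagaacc
Sfrp5 had 2 AGATAA matches, 236 and 180 bases before the start, whereas Wnt3 and Wnt6 had none of the 4 motifs. CTTTGAA occurred 1 time before Aass and 2 times before the upstream start of Aldh1a1, and AGATAA 1 time before its downstream start. Over 32851 promoters of the same length, AGATAA occurred in 9.99%, TGATAA in 7.94%, CTTTGAA in 4.46% and CTTTGAT in 3.21%. Of the 20 genes with the largest ratio, named below, 10 had a promoter in the table. CTTTGAA occurred in 2 of these (Aass and Sema3e), TGATAA in 1 (Fam43b), and the other letters in 0. A match is a description of these letters and not a binding site.

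Wnt6 was the gene that most of the selected cells shared. It gave 2123 UMIs in 303 of the 329 cells, with a lowest count of 0, a median of 5 and a highest of 46 per cell, or 392 CPM (375 to 409), against 10.4 CPM (9.19 to 11.7) in the comparison cells. Sfrp5 gave 3770 UMIs in 171 cells, with a median of 18 UMIs where it was found and a highest of 139. Its level was 695 CPM (673 to 718), against 3.75 CPM (3.05 to 4.57). Wnt3 gave 936 UMIs in 127 cells, with a median of 5 UMIs where it was found and a highest of 58, and its level was 173 CPM (162 to 184), against 1.36 CPM (0.956 to 1.89). Sfrp5 and Wnt3 were therefore absent from the counts of many cells and high in others, while Wnt6 was spread over almost all. The selection fixed part of this, since a cell without Wnt3 and Sfrp5 had to hold at least 3 Wnt6 UMIs. Where Wnt3 plus Sfrp5 alone chose the cells, Wnt6 was found in 82.2% of them. In 252 immune marker cells of the same library, which should lack these genes, Wnt3 and Sfrp5 stood at 0.445 CPM each and Wnt6 at 3.56 CPM. In 4846 mesenchyme marker cells Wnt6 reached 22.4 CPM and was found in 11.9% of cells. The level in the comparison cells was lower, but the selection had taken most cells with 3 or more UMIs of the 3 genes out of that group. The mesenchyme marker cells had no such limit, so the 2 levels cannot be compared directly.

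Each of the 3 genes was also looked at in cells chosen by the other 2. Selected by Wnt3 plus Wnt6, 302 cells held Sfrp5 at 709 CPM, against 8.51 CPM in the remaining cells, a ratio of 83.2 (72.8 to 95.6). Selected by Wnt6 plus Sfrp5, 326 cells held Wnt3 at 173 CPM, against 1.51 CPM. Selected by Wnt3 plus Sfrp5, only 146 cells remained, and Wnt6 stood at 324 CPM in them, against 57.3 CPM, a ratio of 5.66 (5.17 to 6.18). Wnt6 was thus also present in cells without the other 2 genes. Selected by Wnt6 alone, 257 cells had a ratio of 11.6 (10.8 to 12.4) for Sfrp5 and 10.1 (8.84 to 11.5) for Wnt3. Selected by Wnt3 alone, 93 cells had a ratio of 98.4 (90.6 to 107) for Sfrp5. All of these UMIs come from the same library and the same cells, so these ratios are not independent of each other.

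Wnt3 was found almost only where Sfrp5 was found. Of the 127 cells with Wnt3, 124 also held Sfrp5, and of the 158 cells without Sfrp5, 3 held Wnt3. All 3 genes were found in 105 cells (31.9%), Wnt6 alone in 155 (47.1%), Wnt6 with Sfrp5 in 40 (12.2%), Wnt3 with Sfrp5 in 19 (5.78%), Sfrp5 alone in 7 and Wnt3 with Wnt6 in 3. The cells with Wnt6 alone were the deeper ones, with a median of 14472 UMIs per cell, against 10133 in the cells with all 3 genes. Sfrp5 counts ran from 0 in 158 cells and 1 to 2 in 27, through 3 to 9 in 32, to 10 or more in 112. Of those 112 cells, 107 held Wnt3.

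**Figure D1:**
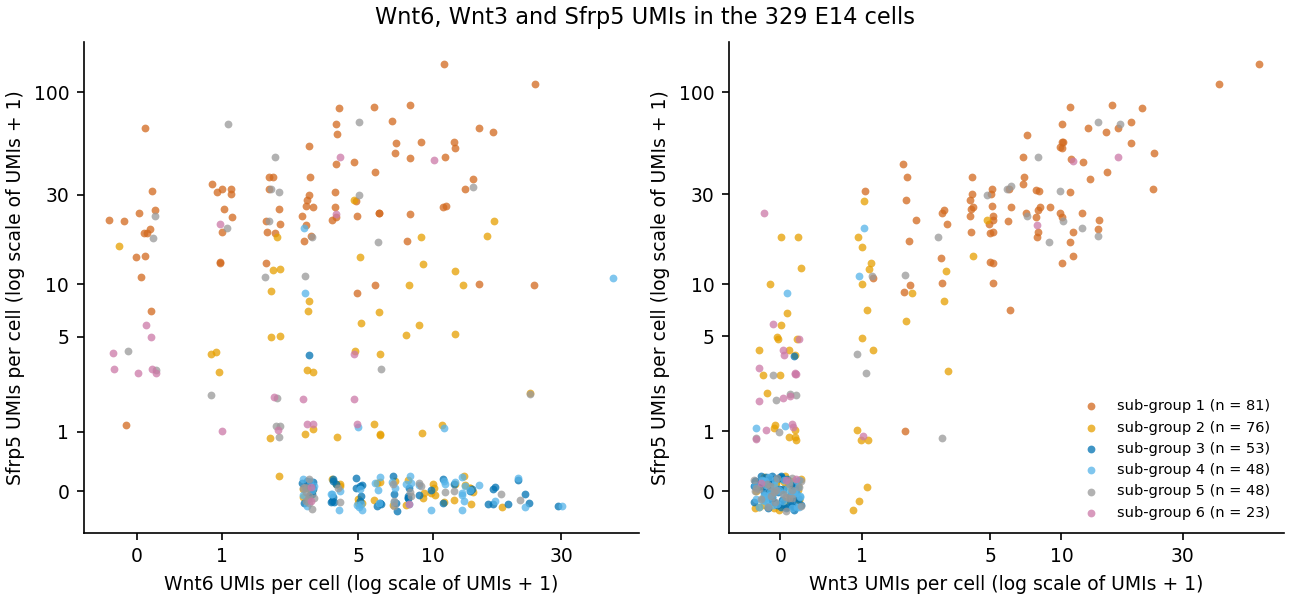
Each point is 1 of the 329 E14 cells, with Sfrp5 UMIs per cell on the vertical axes and Wnt6 (left) or Wnt3 (right) UMIs per cell on the horizontal axes, on a log scale of UMIs plus 1 with small random shifts, coloured by sub-group. The 158 cells without Sfrp5 run along the bottom with Wnt6 counts of 2 or more, and high Sfrp5 counts lie with high Wnt3 counts, mostly in sub-group 1.

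The selected cells carried the markers Smoc2, Vit and Aldh1a1, but these did not mark the same cells. Smoc2, a secreted matricellular protein, had a median of 4 UMIs per cell and a highest of 46, and was found in 275 of 329 cells. Its level was 357 CPM (342 to 374) in the Wnt3 Wnt6 Sfrp5 cells and 27.5 CPM (25.5 to 29.6) in the comparison cells, 13.0-fold (11.9 to 14.2). Vit, which encodes the extracellular matrix protein vitrin, stood at 139 CPM in the Wnt3 Wnt6 Sfrp5 cells and 21.6 CPM in the comparison cells, 6.44-fold (5.77 to 7.19). Aldh1a1, an enzyme that makes retinoic acid, stood at 108 CPM in the Wnt3 Wnt6 Sfrp5 cells and 42.5 CPM in the comparison cells, 2.54-fold (2.29 to 2.81). Vit was found in 164 cells and Aldh1a1 in 165, and both were lower in the cells with Sfrp5, as given below. When cells were selected by Wnt3 plus Sfrp5, the direction turned for both, to a log2 ratio of -0.92 for Vit and -0.21 for Aldh1a1. When cells were thinned to 4000 UMIs, which left out 7 Wnt3 Wnt6 Sfrp5 cells and 773 comparison cells, Smoc2 was found in 63.7% (58.1 to 68.9%) and 8.24% of cells, against 83.6% and 12.8% before thinning. In the immune marker cells, at a median of 7465 UMIs, the thinned share of Smoc2 was 0.599%. Smoc2 was therefore found in most of the cells, and Vit and Aldh1a1 in a portion, while Epcam was in every cell because the selection asked for it.

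The limit of 3 UMIs did not fall at a gap in the marker levels. The 48 cells with a sum of exactly 3 held Vit at 137 CPM, and the 57 cells just outside with a sum of 2 held 128 CPM. Aldh1a1 stood at 148 CPM just inside and 112 CPM just outside. Smoc2 stood at 117 CPM just inside and 85.5 CPM just outside, against 396 CPM in the 112 cells with a sum of 20 or more and 24.4 CPM in the 2095 cells with a sum of 0. Lrrn1 ran the same way, at 93.5 CPM just inside, 89.4 CPM just outside and 306 CPM at 20 or more. Vit and Aldh1a1 were lower at 20 or more, at 73.6 and 67.9 CPM, than just inside. At a sum of 0 they stood at 17.9 and 47.3 CPM. Ntn1 stood at 37.4 CPM just inside, 67.1 CPM just outside and 205 CPM at 20 or more.

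Depth and other cell types differed between the 2 groups. The Wnt3 Wnt6 Sfrp5 cells had a median of 11657 UMIs (2158 to 158492) and the comparison cells 8132. The 10 mesenchyme markers summed to 1999 CPM in the Wnt3 Wnt6 Sfrp5 cells and 4688 CPM in the comparison cells, with 0 of the 10 at 0 UMIs in either, and 47 cells (14.3%) and 854 cells (32.0%) carried over 2000 CPM of Otor, Coch, Col1a2 and Pou3f4. The median haemoglobin level was 211 CPM in the Wnt3 Wnt6 Sfrp5 cells and 307 CPM in the comparison cells. A high simulated-doublet score was given to 52 of the Wnt3 Wnt6 Sfrp5 cells (15.8%) and 379 of the comparison cells (14.2%). The part of these in the differences below was not tested beyond the alternatives that leave such cells out.

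Against the comparison cells, 250 of 11760 genes with at least 100 UMIs were at least 2-fold higher (2.13%) and 1189 at least 2-fold lower (10.1%). Leaving out the genes that chose the cells, the 20 genes with the largest ratio held secreted and matrix genes, guidance genes and metabolic enzymes. Ntn1, which encodes netrin-1, a laminin-related secreted protein needed in mice for the fusion of the semicircular canal plates, stood at 158 CPM (148 to 169) in the Wnt3 Wnt6 Sfrp5 cells and 19.3 CPM in the comparison cells, 8.20-fold (7.34 to 9.17). Lrrn1, a leucine-rich repeat membrane protein, stood at 249 CPM in the Wnt3 Wnt6 Sfrp5 cells and 23.2 CPM in the comparison cells, 10.7-fold. Sema3e, a secreted semaphorin, stood at 122 CPM and 18.0 CPM. The enzymes were Nos2, the inducible nitric oxide synthase, at 45.2 and 2.05 CPM, 22.1-fold (16.4 to 30.2), Ass1, argininosuccinate synthase, which regenerates the arginine that nitric oxide synthases use, at 40.0 and 4.55 CPM, and Aass, which starts lysine breakdown, at 27.5 and 2.12 CPM. Among regulators, the forkhead factor Foxq1 stood at 59.9 CPM in the Wnt3 Wnt6 Sfrp5 cells and 2.73 CPM in the comparison cells, 22.0-fold (17.0 to 28.8), and Zfpm2, a cofactor of GATA factors, at 44.6 and 3.26 CPM. Fam43b had the largest ratio of these, 54.0 (29.1 to 111), at 22.5 and 0.417 CPM. The remaining genes were Rasl10a, Fstl4, Lrrc4, Crtac1, Nr4a3, Pkp1, Slc14a1, 2700046A07Rik, Col1a1, Smoc2 and Vit, with ratios between 6.44 and 21.1.

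Col1a1 and Col1a2, the chains of collagen I, differed in direction. Col1a1 stood at 107 CPM (98.4 to 116) in the Wnt3 Wnt6 Sfrp5 cells and 5.08 CPM in the comparison cells, and was found in 112 of 329 cells. Col1a2 stood at 118 CPM in the Wnt3 Wnt6 Sfrp5 cells and 292 CPM in the comparison cells. In the mesenchyme marker cells Col1a1 stood at 6.32 CPM and Col1a2 at 1350 CPM. Those cells were chosen by UMIs of mesenchyme markers, and Col1a2 was used above as such a marker with Otor, Coch and Pou3f4. Its level there may therefore follow from the choice. Mesenchyme cells low in the chosen markers were left out, and their Col1a1 level was not tested. Col2a1, the chain of collagen II, stood at 2157 CPM in the Wnt3 Wnt6 Sfrp5 cells and 830 CPM in the comparison cells, 2.60-fold (2.54 to 2.66).

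**Figure D2:**
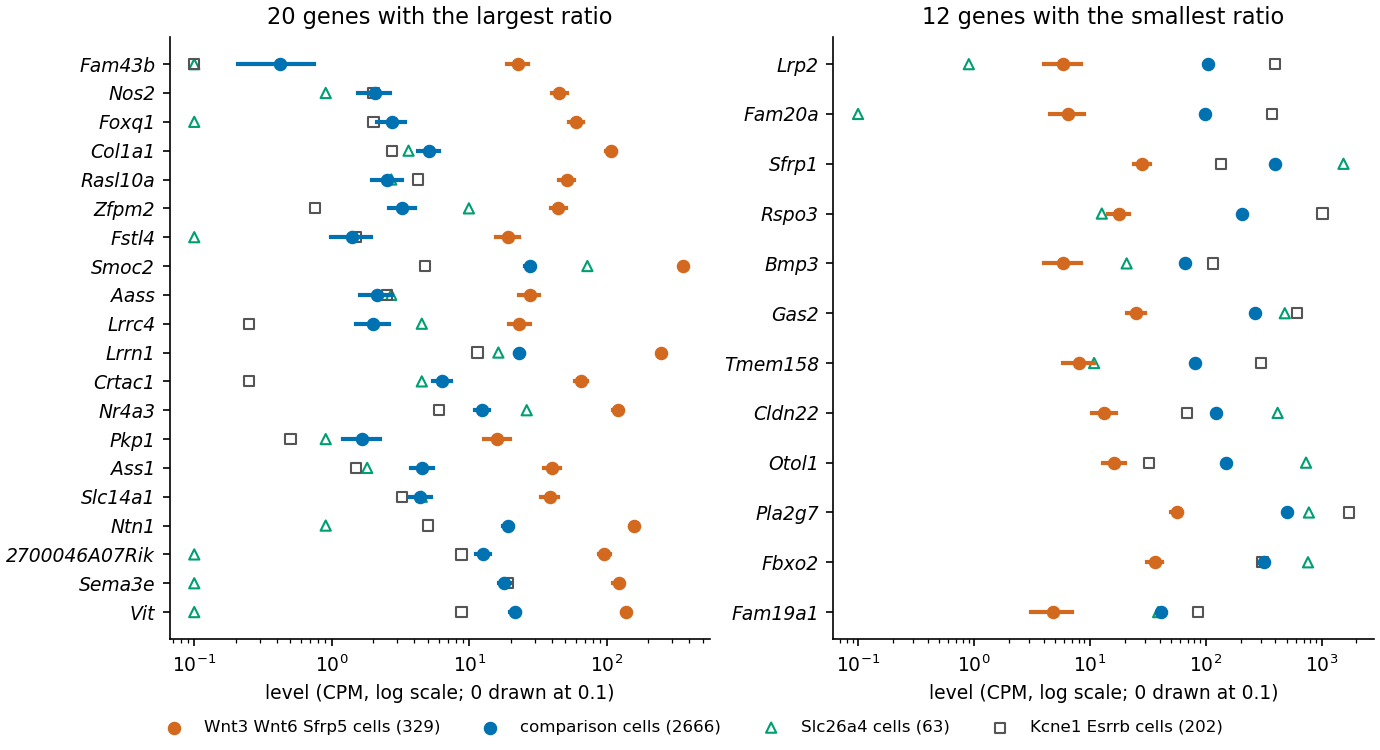
Levels in CPM on a log axis, with 0 drawn at 0.1, of the 20 genes with the largest and the 12 with the smallest ratio between the 329 Wnt3 Wnt6 Sfrp5 cells and the 2666 comparison cells, with exact 95% Poisson intervals as bars, and of the same genes in 63 Slc26a4 and 202 Kcne1 Esrrb cells without bars. Sfrp1, Otol1 and Cldn22 peak in the Slc26a4 cells, and Lrp2, Fam20a and Rspo3 in the Kcne1 Esrrb cells.

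The 12 genes with the smallest ratio were mostly genes of the other vestibular epithelia. The selection left cells with more than 1 UMI of Slc26a4 or of Kcne1 plus Esrrb among the comparison cells, so this follows in part from it. The 202 Kcne1 Esrrb cells gave 4068 of the 5424 Rspo3 UMIs and 1586 of the 2741 Lrp2 UMIs of the comparison cells. Lrp2, the endocytic receptor megalin, stood at 5.90 CPM (4.04 to 8.33) in the Wnt3 Wnt6 Sfrp5 cells and 104 CPM in the comparison cells. It reached 398 CPM in the 202 E14 cells with Kcne1 and Esrrb, genes of the dark cell lineage. Rspo3, a secreted enhancer of Wnt signalling, stood at 17.9 CPM in the Wnt3 Wnt6 Sfrp5 cells and 206 CPM in the comparison cells, at 1020 CPM in the Kcne1 Esrrb cells and at 12.7 CPM in the Slc26a4 cells, against which its direction turned (log2 ratio 0.50). Sfrp1, another secreted Wnt-binding inhibitor, stood at 28.4 CPM (24.1 to 33.3) and 394 CPM, and at 1547 CPM in the 63 Slc26a4 cells. Otol1, which encodes the otoconial matrix protein otolin, stood at 16.2 CPM and 149 CPM. Bmp3, Gas2, Tmem158, Cldn22, Pla2g7, Fbxo2, Fam20a and Fam19a1 completed the list, with ratios between 0.0654 and 0.116.

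The 20 highest genes were also high against each neighbouring epithelium. Against the Slc26a4 cells, where 5.85% of 7004 genes were at least 2-fold higher and 3.83% lower, 19 of 19 of these genes with enough UMIs were at least 2-fold higher. Against the Kcne1 Esrrb cells, where 4.92% of 8395 genes were higher and 5.84% lower, 19 of 19 were higher. Crtac1, a secreted cartilage acidic protein, stood at 65.3 CPM in the Wnt3 Wnt6 Sfrp5 cells, 6.37 CPM in the comparison cells, 4.52 CPM in the Slc26a4 cells and 0.251 CPM in the Kcne1 Esrrb cells. These genes were picked for their ratio to cells that include both of these groups, so their counts here follow in part from that choice. The limit on UMIs is over both groups together, so a gene can pass it on the Wnt3 Wnt6 Sfrp5 cells alone. Fam43b, Foxq1, Fstl4, Sema3e, Vit and 2700046A07Rik passed with 0 UMIs in the Slc26a4 cells. Fam43b also passed with 0 UMIs in the Kcne1 Esrrb cells. A gene that passes with 0 UMIs there can only be called higher, so these counts are a description and not a test.

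Among the Wnt ligands, the cells that held Wnt3 and Wnt6 held less of most others. Of 8 ligands with enough UMIs, 3 were at least 2-fold higher (Wnt3 and Wnt6, which chose the cells, and Wnt7b) and 4 lower. Over all genes, 2.13% were higher and 10.1% lower. The median log2 ratio of the ligands was -0.80, against -0.08 over all genes. Wnt7b stood at 53.5 CPM in the Wnt3 Wnt6 Sfrp5 cells and 22.0 CPM in the comparison cells, 2.43-fold (2.11 to 2.81). Wnt4 stood at 4.43 CPM and 56.1 CPM, Wnt5a at 29.9 and 87.3 CPM, Wnt11 at 0.922 and 11.3 CPM and Wnt9a at 2.21 and 5.69 CPM. Wnt10a, the neighbour of Wnt6 on chromosome 1, gave 20 UMIs in 16 of the 329 cells (3.69 CPM, against 0.910 CPM in the comparison cells). Of 17 genes of Wnt secretion and reception, 0 were at least 2-fold higher and 4 (Fzd4, Fzd9, Fzd10 and Ror2) lower. Wls, the carrier that takes Wnt ligands to the cell surface, stood at 152 CPM in the Wnt3 Wnt6 Sfrp5 cells and 109 CPM in the comparison cells.

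Of 10 secreted or membrane Wnt inhibitors, only Sfrp5, which chose the cells, was at least 2-fold higher, beside 2.13% of all genes. Another 8 were lower, beside 10.1% of all genes. These were Sfrp1, Sfrp2, Frzb, Dkk2, Dkk3, Wif1, Sostdc1 and Tmem88, and Kremen1 stood between the limits, at 39.8 CPM in the Wnt3 Wnt6 Sfrp5 cells and 23.1 CPM in the comparison cells. Sfrp2 stood at 15.3 and 37.4 CPM, and Sostdc1, which can inhibit Wnt and BMP signals, at 20.7 and 51.4 CPM, with 19.1 CPM in the Kcne1 Esrrb cells (log2 ratio 0.12). Wif1, at 13.5 and 27.1 CPM, lay at the limit and did not keep its direction where more Epcam UMIs were asked for.

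The genes that respond to Wnt signals differed little from the mixed comparison cells but more from the neighbouring epithelia. Against the comparison cells, of 14 effectors and targets, 2 were at least 2-fold higher and 0 lower, beside 2.13% and 10.1% of all genes. The median log2 ratio of the 14 was 0.15. The 2 were Znrf3, at 24.5 CPM in the Wnt3 Wnt6 Sfrp5 cells and 10.8 CPM in the comparison cells, 2.28-fold (1.84 to 2.81), and Rnf43, at 25.8 and 12.4 CPM, 2.08-fold (1.70 to 2.55). Both encode ubiquitin ligases that remove Frizzled receptors from the cell surface and are themselves Wnt targets. Axin2, the common readout of beta-catenin activity, stood at 26.9 and 24.8 CPM, 1.08-fold (0.900 to 1.30). Lef1 stood at 46.5 and 26.3 CPM, 1.76-fold (1.52 to 2.04), and Nkd1 at 95.2 and 58.8 CPM, 1.62-fold (1.46 to 1.79). Against the Kcne1 Esrrb cells, 6 of 12 effectors and targets were at least 2-fold higher and 1, Tcf7l2, was lower, beside 4.92% and 5.84% of all genes. Lef1 was 7.41-fold (4.91 to 11.7), Nkd1 5.50-fold (4.27 to 7.18), Axin2 4.88-fold (3.1 to 8.03) and Sp5 11.0-fold (5.42 to 26.1) higher there. Against the Slc26a4 cells, 5 of 12 were higher and 0 lower, beside 5.85% and 3.83% of all genes. Nkd1 was 5.84-fold (3.66 to 9.94), Rnf43 4.76-fold, Znrf3 3.87-fold and Lef1 3.43-fold higher there, Sp5 was 8.16-fold (2.72 to 40.1) higher on 3 UMIs in the Slc26a4 cells, and Axin2 was at 1.06-fold (0.706 to 1.66). Among the R-spondins and their receptors, against the comparison cells, Rspo2, Rspo3 and Lgr4 were lower.

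**Figure D3:**
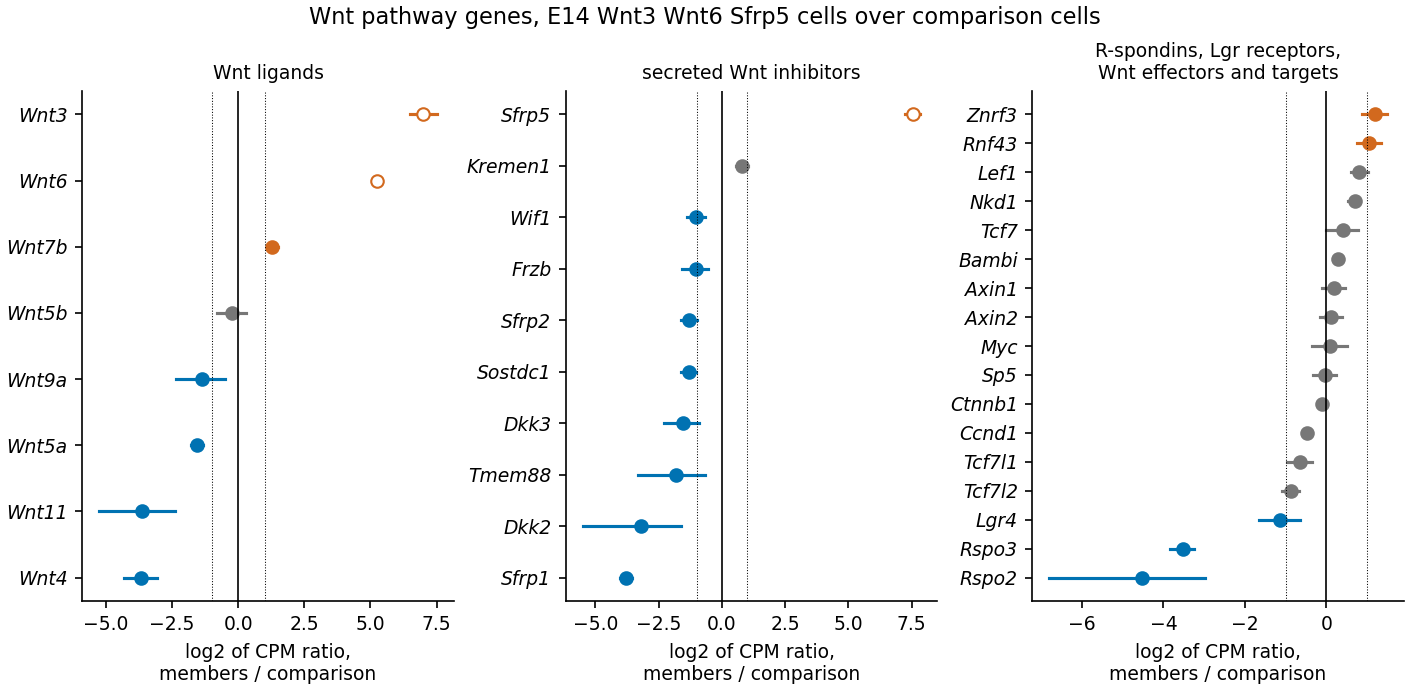
The log2 ratio of CPM in the 329 Wnt3 Wnt6 Sfrp5 cells over the 2666 comparison cells for Wnt ligands, secreted Wnt inhibitors, and R-spondins, receptors, effectors and targets, with exact 95% intervals as bars, dotted lines at 2-fold and open circles for the genes that chose the cells. Wnt3, Wnt6 and Sfrp5 lie far to the right, Wnt4, Wnt11, Sfrp1, Rspo2 and Rspo3 far to the left, and most of the targets between the dotted lines.

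Retinoic acid, BMP and FGF genes held members on both sides of the 2-fold limits, which 2.13% of all genes passed as higher and 10.1% as lower. Of 14 retinoic acid genes, Aldh1a1 was at least 2-fold higher and 5 were lower. Aldh1a2 stood at 1.66 CPM in the Wnt3 Wnt6 Sfrp5 cells and 47.7 CPM in the comparison cells, and Aldh1a3 at 119 and 291 CPM, so the 3 enzymes that make retinoic acid differed in direction. Crabp2, a retinoic acid carrier, stood at 37.6 and 123 CPM, and Rarb, a receptor that retinoic acid induces, at 5.90 and 25.7 CPM. Of 9 BMP and GDF ligands, Bmp2 was higher, at 61.4 CPM (55.0 to 68.4) in the Wnt3 Wnt6 Sfrp5 cells and 10.4 CPM in the comparison cells, 5.89-fold (5.01 to 6.94), while Bmp3, Bmp5 and Gdf10 were lower. The immune marker cells held Bmp2 at 51.2 CPM. The 6 immune markers summed to 27.5 CPM in the Wnt3 Wnt6 Sfrp5 cells and 132 CPM in the comparison cells, and their part in the Bmp2 level was not tested. Of 15 BMP antagonists and targets, Smoc2 was higher and 8 were lower, among them Grem1 at 0.553 and 35.3 CPM, Id2 at 79.5 and 259 CPM, Id3 at 394 and 951 CPM and Smad7 at 18.1 and 37.3 CPM. Id genes and Smad7 are direct targets of BMP signals. Of 14 FGF genes, Fgf9 at 109 and 47.0 CPM and Fgf18 at 9.04 and 4.06 CPM were higher, and 6 were lower (Fgf1, Fgf3, Fgf8, Fgf10, Spry4 and Etv4). Of 16 Notch pathway genes, the ligand Dll1 was higher, at 6.82 and 2.88 CPM, and 5 were lower.

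Of 31 regional transcription factors of the ear, 3 were at least 2-fold higher and 16 lower, beside 2.13% and 10.1% of all genes. Gata2 stood at 219 CPM in the Wnt3 Wnt6 Sfrp5 cells and 84.9 CPM in the comparison cells, 2.58-fold (2.41 to 2.77), Dlx3 at 26.2 and 9.29 CPM, 2.82-fold (2.28 to 3.48), and Zfp503 at 51.8 and 24.1 CPM, with 53.9 CPM in the Kcne1 Esrrb cells (log2 ratio -0.06). Gata3, the other GATA factor of the ear, stood at 0.922 CPM (5 UMIs) in the Wnt3 Wnt6 Sfrp5 cells and 22.0 CPM in the comparison cells. Dlx5 stood at 17.9 and 61.8 CPM, Pax2 at 4.43 and 25.4 CPM and Otx2 at 2.77 and 27.3 CPM. The Gata2 and Dlx3 levels therefore ran opposite to those of Gata3 and Dlx5. Hmx2 at 289 and 247 CPM and Meis2 at 323 and 178 CPM were high in both groups, as was Sox10.

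Keratins, cadherins and ion transport genes also differed from the comparison cells. Against those cells, 2.13% of all genes were at least 2-fold higher and 10.1% lower. Krt8 stood at 845 CPM in the Wnt3 Wnt6 Sfrp5 cells and 365 CPM in the comparison cells, and its partner keratin Krt18 at 1698 and 712 CPM. Against the Slc26a4 cells the ratios were 1.15 for Krt8 and 1.14 for Krt18. Of 19 claudins and cadherins, 4 were higher (Cldn4, Cldn23, Cdh3 and Cdh13) and 4 lower (Cldn11, Cdh2, Cdh4 and Cdh6), of which Cldn4 and Cldn11 turned against the Slc26a4 cells (log2 ratios -0.62 and 0.33). Cdh3, which encodes P-cadherin, stood at 132 and 60.2 CPM and Cdh2, which encodes N-cadherin, at 15.5 and 61.8 CPM. Of 16 genes of the otoconia and gel matrix, Col2a1, Vit and Smoc2 were higher and 8 were lower. Oc90, the main otoconial matrix protein, stood at 7450 CPM in the Wnt3 Wnt6 Sfrp5 cells and 8640 CPM in the comparison cells, whereas Spp1 stood at 0.553 and 129 CPM. Of 16 ion transport genes, 0 were higher and 9 lower, including Slc12a2 at 27.1 and 74.7 CPM and Atp1b1 at 25.1 and 86.4 CPM. Against the Slc26a4 cells, 4 of 10 ion transport genes were higher and 2 lower, beside 5.85% and 3.83% of all genes. Against the Kcne1 Esrrb cells 1 of 12 was higher and 7 lower, beside 4.92% and 5.84% of all genes, with Atp1b1 turned there (log2 ratio 0.06). Of the sensory marker lists, 8 of 8 supporting cell, 7 of 8 hair cell and 3 of 8 sensory progenitor markers were at least 2-fold lower, beside 10.1% of all genes. The progenitor genes Jag1 and Lfng had ratios of 0.970 and 0.980, and the hair cell marker Espn had a ratio of 1.49. Sox2 itself was limited by the selection. Of 7 nonsensory otic epithelium markers with enough UMIs, 0 were at least 2-fold higher. There 4 were lower, namely Otx2, Gata3, Vmo1 and Slc26a4, the last of which the selection limited. Of 8 surface ectoderm markers, Krt5, Krt14 and Trp63 had 0 UMIs in the Wnt3 Wnt6 Sfrp5 cells and 15, 13 and 3 UMIs in the comparison cells. Of the 4 with enough UMIs, Wnt7b was higher, Krt15 (1 and 103 UMIs) was lower, and Perp and Krt10 had ratios of 1.68 and 0.909. Of 24 genes of the S and G2/M phases, 0 were at least 2-fold apart from the comparison cells. Against the Slc26a4 cells, 13 of 21 of these were higher and 0 lower, beside 5.85% and 3.83% of all genes. Against the Kcne1 Esrrb cells, 18 of 23 were higher and 0 lower, beside 4.92% and 5.84% of all genes.

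The selected cells split by Sfrp5 into sets with different genes. Between the 171 cells with Sfrp5 and the 158 without, 207 of 6190 genes were at least 2-fold higher (3.34%) and 160 lower (2.58%), at median depths of 9795 and 14064 UMIs. Crtac1 stood at 135 CPM with Sfrp5 and 3.15 CPM without, 42.8-fold (22.3 to 94.5). Aass stood at 56.2 and 1.75 CPM, Rasl10a, a Ras-like small GTPase, at 102 and 5.24 CPM, and Lmx1a, a LIM homeobox factor of nonsensory otic epithelium, at 64.8 and 3.84 CPM. The opposite side held Vit, at 29.7 CPM with Sfrp5 and 237 CPM without, Adamts19, a secreted metalloprotease, at 22.3 and 184 CPM, Exoc3l4 at 10.9 and 142 CPM and the FGF-induced factor Etv5 at 11.3 and 70.2 CPM. Aldh1a1 stood at 58.2 and 152 CPM. The cell cycle genes Cdk1, at 21.9 and 104 CPM, and Cenpf, at 43.3 and 201 CPM, were also on the side without Sfrp5. Of the 20 highest genes, 19 had enough UMIs for this split, and 10 of them were higher and 3 lower in the cells with Sfrp5. Sema3e, at 121 and 122 CPM, stood equally in both. Cdkn1a, a cell cycle inhibitor, stood at 185 CPM with Sfrp5 and 17.1 CPM without. Immediate early genes stood on the Sfrp5 side as well (Fos at 2883 and 1537 CPM, Atf3 at 433 and 140 CPM), and their part in this split was not tested.

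Clustered without the selecting genes, the 329 cells fell into 6 sub-groups, which are described by their leading genes. Their levels are descriptions, since the same counts formed them. Sub-group 1 (81 cells) held Wnt3 at 713 CPM and Sfrp5 at 2701 CPM, with Crtac1 at 221, Rasl10a at 170, Zfpm2 at 118, Aass at 103, Ass1 at 103 and Bmp2 at 150 CPM. Vit stood at 12.7 CPM and Ccnd1, the G1 cyclin, at 15.6 CPM there. Sub-group 2 (76 cells) held among its leading genes Slco2a1, Nos2 at 141 CPM and the chemokine Cxcl14 at 201 CPM, and held the highest levels among the 6 of Smoc2 (751 CPM), Wnt6 (608 CPM), Sema3e (257 CPM) and Col2a1 (3550 CPM). Its Sfrp5 level was 344 CPM and its Wnt3 level 42.1 CPM. Nos2 and Ass1, which act in 1 metabolic route, therefore peaked in different sub-groups.

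Sub-group 3 (53 cells) held no Wnt3 and 5.03 CPM of Sfrp5, but Wnt6 at 550 CPM, and led with Gjb1, Rnase1 and Exoc3l4. Vit reached 349 CPM, Aldh1a1 167 CPM and Ccnd1 313 CPM in it. Sub-group 4 (48 cells) was marked by mitosis genes such as Prc1 (155 CPM) and Nusap1 (186 CPM), with the 24 cycle genes summing to 3574 CPM, against 170 CPM in sub-group 1. It held Vit at 227 CPM, Aldh1a1 at 152 CPM and Wnt6 at 329 CPM, had the deepest cells, at a median of 20552 UMIs, and held 15 cells with a high doublet score. Cycling transcripts lay mainly in sub-group 4, where 43 of the 48 cells lacked Sfrp5. The cycle genes summed to 547 CPM in sub-group 3, which also almost lacked Sfrp5. They summed to 311 CPM in sub-group 2, 969 CPM in sub-group 5 and 183 CPM in sub-group 6. Since the clustering itself set cells with mitosis genes apart, these sums cannot show whether cycling went with the absence of Sfrp5.

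Sub-groups 5 and 6 carried genes of other kinds. Sub-group 5 (48 cells) led with Slc1a2, Vcam1 and Coch, its 10 mesenchyme markers summed to 9701 CPM, against 181 to 708 CPM in the other sub-groups, and 32 of its cells had a high doublet score. Its share in the differences was examined by leaving it out together with sub-group 6, which left 258 cells with 287 genes higher and 1501 lower. Sub-group 6 (23 cells) led with Pyy, Sct, Prss56, Mt3 and Npy, of which Pyy, Sct and Npy encode peptide hormones. Pyy was found in 12 of the 329 cells, and 69.5% of its UMIs came from 1 cell. Prss56, a serine protease, stood at 1916 CPM in sub-group 6 and between 2.19 and 6.83 CPM elsewhere, with 46.6% of its UMIs in 1 cell. Sub-group 6 also held Lmx1a at 195 CPM, Zpld1, which encodes a zona pellucida-like domain protein, at 468 CPM, Tbx2 at 222 CPM, Otol1 at 160 CPM and Pax2 at 55.6 CPM, with Wnt6 at only 144 CPM and Sfrp5 at 415 CPM.

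**Figure D4:**
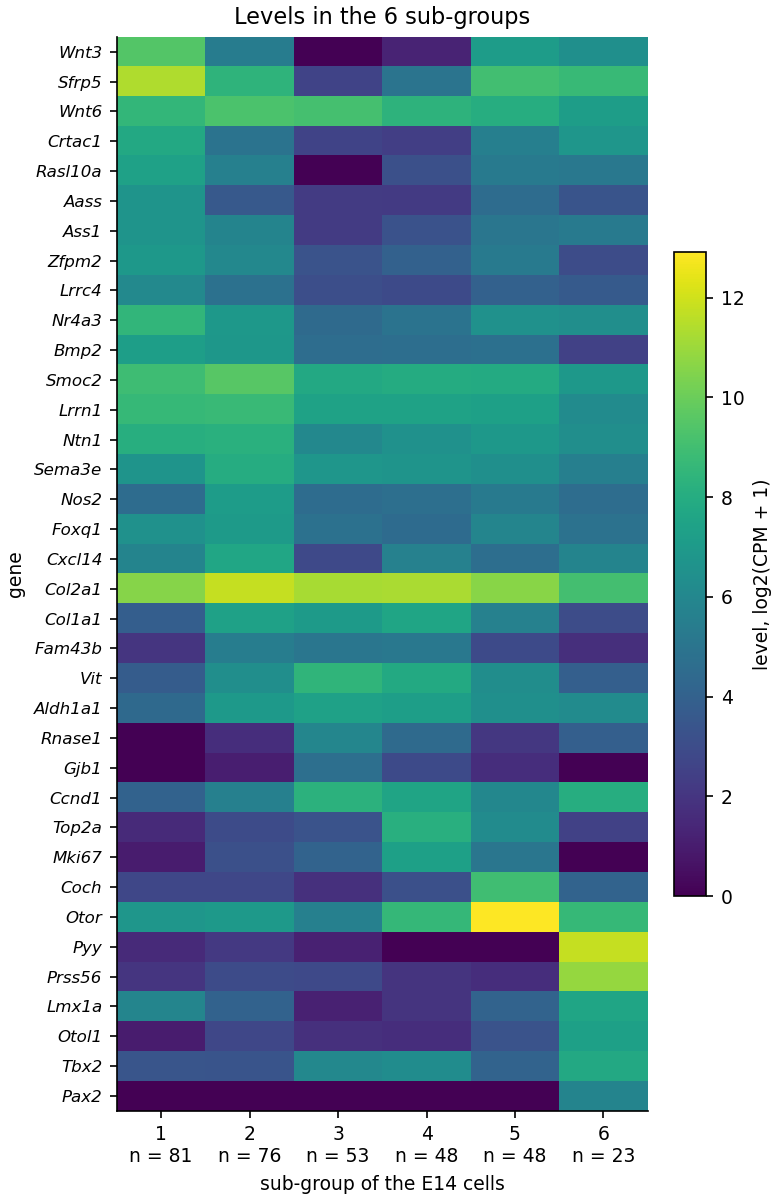
Levels of 36 genes, as log2 of CPM plus 1, in the 6 sub-groups of the 329 E14 cells, with the number of cells under each column. Wnt3, Sfrp5, Crtac1 and Rasl10a are high in sub-group 1, Vit and Aldh1a1 in sub-groups 3 and 4, Otor and Coch in sub-group 5, and Pyy and Prss56 in sub-group 6.

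At P2 the same selection found 61 cells, 1.49% (1.15 to 1.92%) of the 4081 cells past the filter and 3.15% (2.42 to 4.03%) of the Epcam cells with low Sox2. They held Sfrp5 at 789 CPM in 54 cells and Wnt6 at 240 CPM in 44 cells, while Wnt3, at 163 CPM, came from 7 cells, with 34.9% of its UMIs in 1 of them. Against 1876 comparison cells of that age, 374 of 10232 genes were at least 2-fold higher (3.66%) and 1014 lower (9.91%). The Wnt3 Wnt6 Sfrp5 cells had a median of 11287 UMIs at P2 and these comparison cells 4228. Of the 20 genes highest at E14, 9 had enough UMIs at P2, and 8 of them were at least 2-fold higher there too. Of the 247 genes at least 2-fold higher at E14 apart from the 3 selecting genes, 174 had enough UMIs at P2, where 72 were higher and 10 lower. Of the 12 lowest genes, 9 of 12 were at least 2-fold lower at P2. Since the same 3 genes chose the cells at both ages, these counts repeat the selection in another library and are not a replicate of the E14 result.

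**Figure D5:**
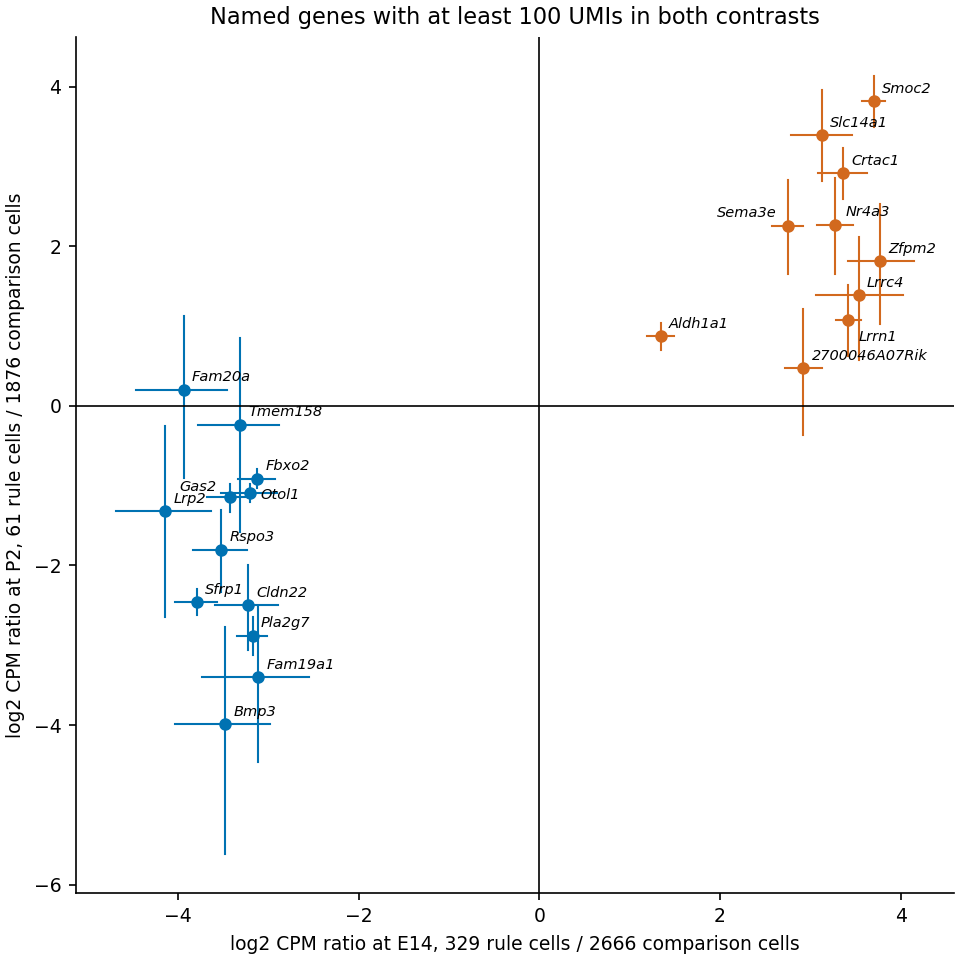
The log2 ratio of Wnt3 Wnt6 Sfrp5 cells over comparison cells at E14 (horizontal, 329 and 2666 cells) and P2 (vertical, 61 and 1876 cells) for named genes with at least 100 UMIs at each age, with exact 95% intervals as bars. Smoc2, Slc14a1 and Crtac1 lie far above 0 at both ages, whereas 2700046A07Rik, Fam20a and Tmem158 lie near 0 at P2.

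Smoc2 stood apart at P2 as well, at 159 CPM in the P2 Wnt3 Wnt6 Sfrp5 cells and 11.3 CPM in the P2 comparison cells, 14.1-fold (11.3 to 17.6). Crtac1 stood at 124 and 16.5 CPM, Ntn1 at 36.0 and 2.93 CPM, Slc14a1, a urea transporter, at 45.4 and 4.33 CPM and Rasl10a at 24.6 and 0.266 CPM. Vit gave only 2 UMIs in the P2 cells, or 1.89 CPM, against 139 CPM in the E14 cells. Aldh1a1 stood at 304 CPM and 166 CPM, a ratio of 1.83 (1.62 to 2.05). Some Wnt targets had a larger ratio to the comparison cells at P2 than at E14. Axin2 stood at 112 and 42.2 CPM, 2.64-fold higher than in the P2 comparison cells, Nkd1 at 208 and 79.7 CPM and Sp5 at 146 and 25.6 CPM, where the E14 ratios were 1.08, 1.62 and 0.973. The difference between the ages was not tested.

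The 7 P2 cells with Wnt3 looked unlike the 54 without it. In the 7 cells Wnt3 counts ran from 3 to 60 with a median of 20, and Sfrp5 from 28 to 127 with a median of 49. Smoc2 ran from 5 to 45 UMIs, with a median of 16, and stood at 1419 CPM (1196 to 1672) in the 7 cells, against 26.2 CPM (16.9 to 38.6) in the 54 others. Rasl10a was found in all 7 cells, at 228 CPM, against 3.14 CPM in the others, and Ntn1 in all 7, at 149 CPM against 24.1 CPM. Wnt3 set these cells apart and Wnt3 and Sfrp5 chose them, so only the other genes bear on a likeness to E14 sub-group 1. Crtac1 stood at 288 CPM in the 7 cells, against 107 CPM in the others and 221 CPM in sub-group 1, and Aass at 69.5 CPM, against 2.09 and 103 CPM. Other genes of sub-group 1 were low in the 7 cells, with Wnt6 at 5 UMIs in 2 cells (49.6 CPM, against 382 CPM in sub-group 1), Foxq1 at 2 UMIs in 1 cell and Bmp2 at 1 UMI. Zpld1, Nupr1, Prss56, C1ql3 and Nox3 gave 0 UMIs in the 7 cells, which allows up to 36.6 CPM. In the 54 cells without Wnt3, Zpld1 stood at 2774 CPM in 41 cells, Nupr1, a stress-induced chromatin regulator, at 2027 CPM in 46 cells, Prss56 at 551 CPM in 39 cells and Otol1 at 620 CPM in 45 cells. These 7 cells were set apart after their counts had been seen.

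Several of the genes that led at P2 came from the 54 cells, whereas Smoc2, also among the leading 15, gave 143 of its 168 UMIs in the 7 cells with Wnt3. Nupr1 stood at 1833 CPM in all 61 cells and 34.7 CPM in the P2 comparison cells, 52.8-fold (47.9 to 58.3), Nox3, the oxidase needed in mice to form otoconia, at 133 and 3.73 CPM, and Prss56 at 499 and 15.3 CPM. Of the 15 genes with the largest P2 ratio, 10 had their highest E14 level in sub-group 6, among them Prss56, Nupr1, Nox3, Fndc1 and C1ql3, although Nupr1 was at 160 CPM and Nox3 at 30.1 CPM there. The other 5 peaked in sub-group 5 (3), sub-group 1 (1) and sub-group 2 (1). Sub-group 6 had 23 cells and, apart from Prss56, low counts of these genes. C1ql3 stood at 13.9 CPM (5.1 to 30.3) there, on 6 UMIs in 2 cells, and at 9.43 CPM (5.02 to 16.1) in sub-group 4. The share of all genes that peak in sub-group 6 was not computed, so the count of 10 cannot link it to the P2 cells.

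Between the 2 ages of selected cells, 745 of 7021 genes were at least 2-fold higher at E14 (10.6%) and 703 lower (10.0%). Higher at E14 were mesenchymal genes such as Otor at 1486 CPM, against 1.89 CPM at P2, cycle genes such as Top2a at 87.6 CPM, against 0.947 CPM, and Vit. Adamts19 stood at 108 CPM at E14 and gave 0 UMIs at P2, so it was at least 37.9-fold higher at E14 against a floor of 3 counts over the P2 cells. Lower at E14 were Tmem52 at 9.59 CPM, against 651 CPM, Tecta, which encodes the gel matrix protein alpha-tectorin, at 3.69 CPM, against 192 CPM, Zpld1 at 73.9 CPM, against 2509 CPM, and Otol1 at 16.2 CPM, against 564 CPM. The makeup of the selected cells differed between the ages, with sub-groups that carried mesenchymal and cycle genes at E14 and few cells with Wnt3 at P2, so a change within cells and a change in which cells were selected cannot be told apart.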

How the data were processed

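Per the submitters' processing notes, the authors ran Cell Ranger 3.1.0, and they deposited raw UMI counts per gene (31053 genes) and called barcode for 1 library per age. GRCm39 is given in the methods and GRCm39 and mm10 in the notes, so no coordinates were taken from the files. Seurat 4.1.1 steps are not part of these counts.

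A barcode passed with 500 or more genes, 1000 or more UMIs and no more than 15% of its UMIs from mitochondrial genes, and doublets were scored (2 simulated per cell) but left in. UMIs were summed over groups. Levels carry exact Poisson, ratios exact conditional binomial and shares Clopper-Pearson 95% intervals. Called means a ratio of at least 2 or at most 0.5 among genes with at least 100 UMIs over both groups, and 3 counts were the floor. Slc26a4 and Kcne1 Esrrb cells were comparison cells with at least 3 UMIs of Slc26a4 or of Kcne1 plus Esrrb and at most 1 UMI of each other selecting set. Immune and mesenchyme marker cells lacked Epcam and held at least 10 or 20 UMIs of 4 markers. Sub-groups came from Leiden clustering (1500 variable genes, 15 components, 15 neighbours, resolution 1) without the selecting genes. Median depth was 7205 UMIs at E14 and 10085 at P2 past the filter.

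Named were the 20 largest and 12 smallest ratios among genes found in at least 20% of the cells of the higher group, the 4 highest members and each called member of the 20 lists and the leading genes of each contrast and sub-group, of which 1 is not reported here. Axin2, Lef1, Sp5, Kremen1, Wnt10a, Cdkn1a, Atf3, Tcf7l2, Jag1, Lfng, Perp, Krt10, the counts of lists against the neighbouring cells, the Wnt3 split at P2 and genes named within it, and sub-group levels of other genes were chosen after their values were seen. So were Espn, Vmo1, the nonsensory otic epithelium list and the ratios in cells selected by Wnt6 or Wnt3 alone. The cells and lists were chosen with earlier results of these data known. Results were recomputed under 17 other settings and under 4 more chosen after seeing the data. The ratio intervals were checked on simulated Poisson counts of the group sums, which held no spread between cells. Clusters used leidenalg 0.10.2 with igraph 0.11.9 and scikit-learn 1.9.0, intervals scipy 1.17.1, and plots matplotlib 3.10.9, in Python 3.11.15 with pandas 2.3.3 and numpy 2.4.6.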

Additional observations from a re-analysis of the deposited data

Results flagged for a closer look

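Wnt4, Dlx5 and Sostdc1 lay on opposite sides of the comparison cells at the 2 ages, by at least 2-fold each way, and the difference between the ages was not tested. Wnt4 had a log2 ratio of -3.66 at E14 (4.43 CPM in the Wnt3 Wnt6 Sfrp5 cells and 56.1 CPM in the comparison cells) and 2.41 at P2 (56.8 and 10.7 CPM). Dlx5, a distal-less homeobox factor, had a log2 ratio of -1.79 at E14 (17.9 and 61.8 CPM) and 1.20 at P2 (87.1 and 38.0 CPM). Sostdc1 had a log2 ratio of -1.32 at E14 (20.7 and 51.4 CPM) and 1.26 at P2 (372 and 156 CPM). Wnt4 was found in 10 of the 329 cells at E14 and in 18 of the 61 cells at P2.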

How the results depend on the processing

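Of 140 genes followed, 138 were on the same side of the 2-fold limit when cells were selected by Wnt3 plus Wnt6 and 114 when they were selected by Wnt3 plus Sfrp5. Selection by Wnt3 plus Sfrp5 left 146 cells and turned 3 log2 ratios, to -0.92 for Vit, -0.21 for Aldh1a1 and 0.07 for Epha5. The rule applied to cells thinned to 4000 UMIs left 199 cells and turned Wif1 to 0.08, and at least 3 Epcam UMIs turned it to 0.26. Thinning with the cells as before gave 580 lower genes, against 1189. A gene minimum of 20 UMIs gave 429 higher and 2175 lower genes, and a minimum of 500 gave 129 and 372. Against the Slc26a4 cells, 410 genes were higher and 268 lower, and log2 ratios turned for Rspo3 (0.50), Cldn4 (-0.62) and Cldn11 (0.33). Against the Kcne1 Esrrb cells, 413 were higher and 490 lower, and turned were Sostdc1 (0.12), Irx3 (0.95), Zfp503 (-0.06), Nr2f1 (1.80), Atp1b1 (0.06) and Lamb1 (0.86). Higher genes were 17.4% of those called against the comparison cells, 60.5% against the Slc26a4 cells and 45.7% against the Kcne1 Esrrb cells. The cause of these shifts was not tested.

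Chosen after seeing the data, leaving out cells with mesenchymal UMIs gave 226 higher and 1052 lower genes, of which 193 and 891 were among the original ones, and leaving out cells with haemoglobin UMIs gave 243 and 1171. Without sub-group 4 the counts were 282 and 1158. Removing doublets gave 277 cells with 264 higher and 1099 lower genes. No paired analysis was possible because each age has 1 library. A lone library per age gives no spread between animals, the comparison cells mix several epithelia, and genes under 100 UMIs were not compared. Shallow cells with few Wnt6 transcripts could miss the limit of 3 UMIs.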
